A study of Mus musculus with 13 samples.

Results

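The maturation step within ADAR1-deleted erythroid cells was read from 5 of the 13 arrays of the series, taken by their sort label and genotype. They compare Ter119+ CD71+ cells (2 arrays, embryos 10 and 11) with Ter119- CD71+ cells (3 arrays, embryos 1, 10 and 11), sorted by flow cytometry from mouse fetal livers at E14.5 (embryonic day), with 1 array per embryo and population. Embryos are numbered as in the sample titles, and that arrays sharing a number come from 1 embryo is read from those titles. The embryos carried 1 floxed and 1 null allele of Adar1 (fl/-) and Cre recombinase inserted at 1 copy of the erythropoietin receptor locus (EpoR-Cre ki/+), on a background the labels give as C57JB6. Embryo 1 also carried the R26 EYFP reporter (ki/+), and embryos 10 and 11 did not (+/+). The controls were embryos 2, 13 and 15, with 1 floxed and 1 intact Adar1 allele (fl/+), EpoR-Cre ki/+ and R26 EYFP ki/+, sorted into the same populations (6 arrays), so that Cre was present in every embryo. This Cre acts in the erythroid lineage, so other cells of the liver are not its target. The control arrays served for the same step with 1 intact allele, and the question was which genes moved as cells with the ADAR1 deletion gained Ter119, and whether they moved otherwise than in controls.

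Red cell precursors of the fetal liver divide a few more times as they mature. CD71, the transferrin receptor, is abundant while they take up iron for heme, and Ter119 appears as they pass from the proerythroblast to the basophilic erythroblast stage. Along this path genes of progenitor growth and ribosome production are turned down, and genes of globin, heme and the membrane skeleton are turned up. ADAR1 changes adenosine to inosine in double-stranded RNA, and in its absence the cell's own unedited RNA can set off the sensor MDA5 and an interferon response.

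All values below are log2 RMA signals of 1 probe set per gene, where 1 unit is a doubling of signal, and array values are listed in the order Ter119- CD71+ embryos 1, 10 and 11, then Ter119+ CD71+ embryos 10 and 11. A gene was called, and is said to have risen or fallen, at an adjusted p under 0.05 from limma, with Benjamini-Hochberg adjustment over 19938 genes. Differences are Ter119+ CD71+ minus Ter119- CD71+ with their SE. In sorted bulk RNA, fewer cells of a type and less RNA per cell cannot be told apart. The Ter119+ CD71+ array of embryo 10 stood apart: its upper quartile was 7.47, where the other 4 arrays had 7.77 to 7.83, and it differed from its partner of embryo 11 by a median of 0.247 per gene, against 0.112 to 0.123 among the Ter119- CD71+ arrays. The total is therefore also given without it, and a list's count where it moved by more than 1.5 times. Embryo 1, present in the Ter119- CD71+ group alone, was male by its arrays (Xist 5.31, the Y-linked Uty 8.47), and embryos 10 and 11 were female (Xist 11.61 to 11.75, Uty 3.67 to 3.87), so sex was mixed in that group. None of 4 sex-linked genes was called by limma, and 0 had an unadjusted p under 0.05, though their differences ran from -2.03 to 2.20. Mixed sex within a group widens the spread of such genes, so the lack of a call says little. The part of sex in the other results was not tested.

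The sort labels were checked first. Erythroid genes were high on all 5 arrays: Slc4a1, the band 3 anion exchanger, measured 11.67, 11.25 and 11.44, then 12.52 and 12.55. The erythroid master regulators Gata1 and Klf1 measured 9.14 or more on every array. Tfrc, which encodes CD71 and marks both populations, measured 11.77, 11.76 and 11.84, then 12.15 and 12.19, a difference of 0.38 (SE 0.12, adjusted p = 0.0551). Kit, the stem cell factor receptor that is lost as Ter119 appears, fell from 9.19, 9.01 and 8.50 to 6.28 and 5.60. Adar itself measured 7.39, 7.64 and 7.53, then 7.68 and 8.10, a difference of 0.37 (SE 0.25, adjusted p = 0.442). The group means were 7.52 ± 0.13 (SD, n = 3) and 7.89 ± 0.29 (SD, n = 2), and those of the controls 7.60 ± 0.34 and 7.84 ± 0.48 (SD, n = 3 each), so the array showed no loss of Adar signal beyond the spread in the ADAR1-deleted groups. Since the place of its probes against the floxed exons is unknown here, this value does not check the genotype.

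Promoter sequence is shown for examples of the globin, heme and interferon-stimulated genes that rose in the step. The first set holds 3 erythroid genes that rose. Each is given as the 170 bases before its RefSeq start site in GRCm38.p6 (mm10), 5′ to 3′ on the gene's strand: Hbb-y (chr7:103853208-103853377, minus strand), an embryonic beta-like globin gene, Hba-x (chr11:32276430-32276599, plus strand), the embryonic zeta globin gene, and Alas2 (chrX:150547247-150547416, plus strand), the first enzyme of erythroid heme synthesis. Capitals mark matches on either strand to the GATA factor motifs AGATAA and TGATAA, and to the CACCC box CCNCNCCC, which KLF1 and other Krüppel-like factors can bind. Positions count back from the start site, whose preceding base is -1, and give the leftmost base of a match.
Hbb-y: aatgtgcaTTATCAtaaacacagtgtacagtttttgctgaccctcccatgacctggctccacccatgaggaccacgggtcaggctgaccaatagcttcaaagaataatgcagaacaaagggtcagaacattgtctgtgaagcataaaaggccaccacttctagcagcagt
Hba-x: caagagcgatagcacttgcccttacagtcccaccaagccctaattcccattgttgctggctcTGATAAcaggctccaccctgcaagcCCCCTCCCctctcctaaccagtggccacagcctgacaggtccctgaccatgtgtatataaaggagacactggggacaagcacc
Alas2: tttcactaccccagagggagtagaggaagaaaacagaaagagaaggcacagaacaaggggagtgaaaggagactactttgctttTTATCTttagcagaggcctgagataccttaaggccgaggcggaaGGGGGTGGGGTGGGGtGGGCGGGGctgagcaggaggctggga

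Hbb-y held TTATCA, the reverse complement of TGATAA, at -162, and Hba-x held TGATAA at -108 and a CACCC match at -83. Alas2 held TTATCT at -86 and 4 CACCC matches, some overlapping, from -42 to -26. In windows of 300 bases, from 250 before to 50 after the start, CCNCNCCC was common: 62.3% of the 15614 measured genes with a window held it. It was in 20 of 23 late erythroid genes (87.0%), 14 of 16 heme synthesis genes (87.5%) and 19 of 20 erythroid transcription factor genes (95.0%). It was in 1 of 5 globin genes (20.0%) and in 4 of 9 of the genes with the 15 largest rises that had a window (44.4%). AGATAA was in 10.8% of measured genes and TGATAA in 8.0%, and 4 of 23 and 1 of 23 late erythroid genes held them. These matches describe letters and not binding.

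The second set holds 3 interferon-stimulated genes that rose: Ifit1 (chr19:34640719-34640888, plus strand), whose product binds foreign RNA ends, Rsad2 (chr12:26456453-26456622, minus strand), which encodes the antiviral enzyme viperin, and Oasl2 (chr5:114896764-114896933, plus strand), of the oligoadenylate synthetase family. Capitals mark the core of the interferon-stimulated response element, searched as GAAANNGAA on both strands.
Ifit1: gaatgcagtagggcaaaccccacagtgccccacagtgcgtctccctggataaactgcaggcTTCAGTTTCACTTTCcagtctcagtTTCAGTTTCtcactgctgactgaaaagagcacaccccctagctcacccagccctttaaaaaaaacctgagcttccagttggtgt
Rsad2: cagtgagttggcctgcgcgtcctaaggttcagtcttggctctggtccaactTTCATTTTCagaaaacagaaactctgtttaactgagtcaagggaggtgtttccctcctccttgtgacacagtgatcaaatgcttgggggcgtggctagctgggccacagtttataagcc
Oasl2: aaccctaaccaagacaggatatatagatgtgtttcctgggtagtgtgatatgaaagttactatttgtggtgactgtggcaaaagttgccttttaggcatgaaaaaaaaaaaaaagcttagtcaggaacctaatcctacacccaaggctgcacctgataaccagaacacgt

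Ifit1 held 3 matches, at -109, -103 and -84, of which the first and the second overlap. Rsad2 held 1, at -119, and the letters were not found in the window of Oasl2. The core was in 25 of 49 interferon-stimulated genes with a window (51.0%) and in 9.2% of measured genes. Of the interferon-stimulated genes that rose in the step, 4 of 13 held it (30.8%), and of the others 21 of 36 (58.3%).

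Of 19938 genes, 2143 changed in the step within ADAR1-deleted cells (10.7%), 898 upward (4.50%) and 1245 downward (6.24%). Changes over 1 log2 unit numbered 209 upward and 426 downward. Every called gene had the same sign in embryos 10 and 11, each taken from its own pair of arrays. The calls were made from these same arrays, so this agreement is no independent support. The Ter119+ CD71+ and Ter119- CD71+ arrays did not overlap for 3568 genes in the upward direction (17.9%) and 3405 in the downward direction (17.1%). Of the called genes only Slamf8, a signalling lymphocyte activation molecule family member, overlapped (4.55, 4.29 and 4.14, then 5.24 and 4.55, named after its values were seen). A lack of overlap in a called gene is therefore no separate support for its call. Without the Ter119+ CD71+ array of embryo 10, 707 genes rose and 449 fell, so that the larger share turned from lower to higher, and 999 of the 2143 genes were called (46.6%). Without that of embryo 11, which leaves the array of embryo 10 to stand for the group, 1465 rose and 1892 fell, and without a Ter119- CD71+ array 641 to 698 rose and 780 to 923 fell (780 without embryo 11). With embryo number as a fixed replicate block, where the step rests on the pairs of embryos 10 and 11 alone, 746 rose and 1208 fell.

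**Figure D1:**
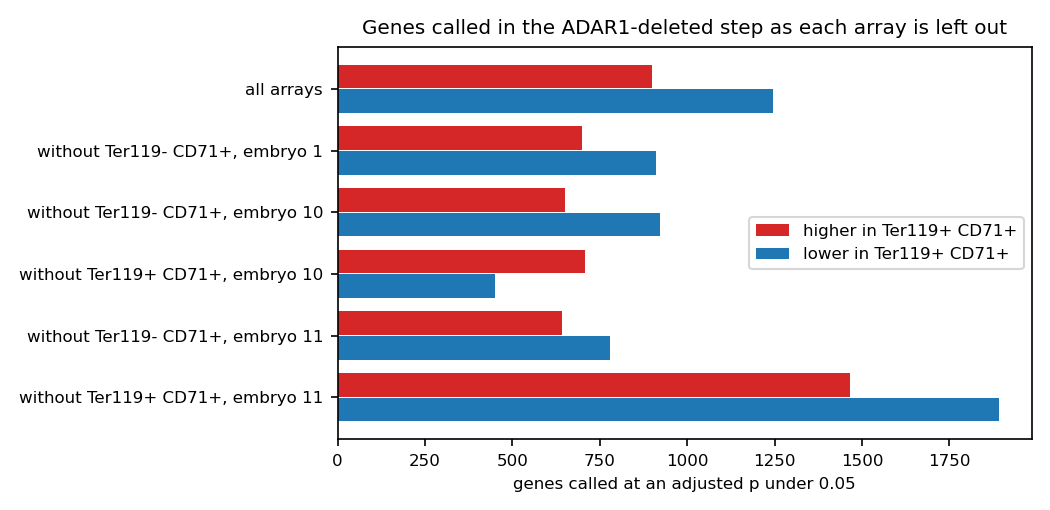
Number of genes called (x axis) in the step within ADAR1-deleted cells with all 13 arrays in the fit and with each of the 5 arrays left out in turn (y axis), higher in red and lower in blue. Lower calls outnumber higher calls in every setting drawn except without the Ter119+ CD71+ array of embryo 10 (707 higher, 449 lower).

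Globin genes gave the largest rise among the named genes. Hbb-y measured 5.67, 6.16 and 6.02, then 9.97 and 9.72, a rise of 3.89 (SE 0.39, adjusted p = 3.99e-05). Its 2 populations lay over 3 units apart on every array. Hbb-bh1, another embryonic beta-like globin, went from 7.32, 5.99 and 6.86 to 9.34 and 9.89, a rise of 2.89 (SE 0.33, adjusted p = 0.000109), and Hba-x from 7.42, 7.43 and 7.51 to 9.60 and 9.82, a rise of 2.25 (SE 0.16, adjusted p = 3.01e-06). Neither overlapped. The theta globin genes Hbq1b and Hbq1a rose by 2.17 and 1.21. Of 6 measured globin genes 5 rose, also without any single array, and the list's median was 2.21, beside 0.05 over all genes. Other globin genes were not analysed here.

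**Figure D2:**
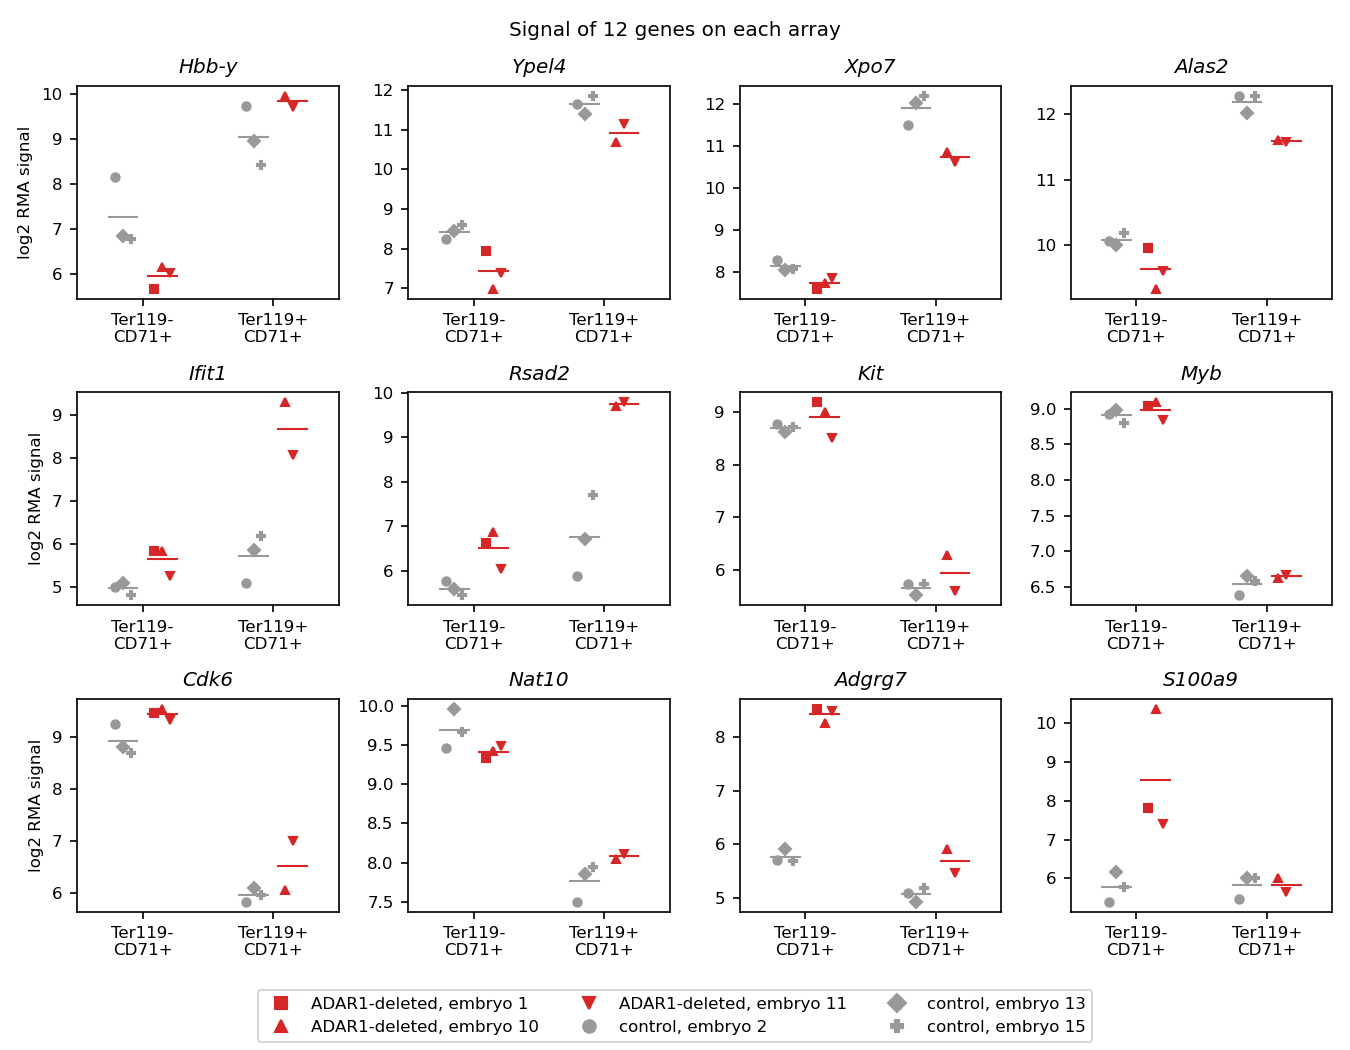
Log2 RMA signal (y axis, its own scale in each panel) of 12 genes on each array of the 2 populations (x axis), ADAR1-deleted in red and control in grey, with marker shapes for embryos and short lines for group means. Hbb-y to Rsad2 are higher in Ter119+ CD71+ cells and Kit to S100a9 lower in the ADAR1-deleted embryos, and S100a9 is highest in Ter119- CD71+ cells of embryo 10 (10.36).

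Heme and iron genes rose with them. Alas2 measured 9.96, 9.34 and 9.61, then 11.61 and 11.58, a rise of 1.95 (SE 0.16, adjusted p = 7.75e-06), with about equal values on the 2 Ter119+ CD71+ arrays. Of 18 heme genes 10 rose and 1 fell (median 0.57). Those that rose included Abcb10, a mitochondrial transporter (1.37), Slc25a39, the mitochondrial glutathione importer (1.22), Ppox (1.01) and Urod (0.81), which catalyse late steps of the pathway, and Fech (0.74), the enzyme that inserts iron. The heme exporter gene Flvcr1 was the 1 that fell, from 8.52, 7.79 and 8.74 to 6.18 and 7.05 (-1.73, SE 0.29, adjusted p = 0.00181). Without the Ter119+ CD71+ array of embryo 11 the count of higher heme genes was 6. Of 20 iron genes 7 rose and 1 fell (median 0.17). Ncoa4, the receptor that delivers ferritin to lysosomes, rose by 1.13 (SE 0.11, adjusted p = 3.99e-05), Slc25a37, the mitochondrial iron importer mitoferrin, by 1.10 and the iron-sulfur assembly gene Isca1 by 0.91. The iron count was 3 with embryo as a fixed replicate block, on median-centred arrays, and without any Ter119- CD71+ array or the Ter119+ CD71+ array of embryo 11. Aco1, the cytosolic aconitase that doubles as iron regulatory protein, fell by 1.14 (SE 0.22, adjusted p = 0.0044), and was -0.69 and not called without the Ter119+ CD71+ array of embryo 10.

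The membrane skeleton and its anchors followed. Of 18 genes 12 rose and 1 fell, with a median of 0.79. Dmtn (dematin, an actin bundler) rose by 1.56 (SE 0.16, adjusted p = 4.8e-05), Epb42 (protein 4.2) by 1.34, Stom (stomatin) by 1.32, Tmod1 (tropomodulin 1) by 1.27 and Slc4a1 by 1.08. Add3, the gamma adducin of non-erythroid cells, fell from 9.30, 9.43 and 9.08 to 8.14 and 8.34 (-1.03, SE 0.16, adjusted p = 0.00127), and its difference in the control step was 0.02. The difference between the steps, -1.05, was not called (adjusted p = 0.202). Among 24 surface antigen genes 8 rose and 2 fell (median 0.25). Cd59a, a complement inhibitor, rose by 1.61, Rhd, of the Rh complex, by 0.87 and Gypc (glycophorin C) by 0.91, and Kit and Cd44, an adhesion receptor lost through maturation, fell by 2.96 and 1.13.

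Late erythroid genes were called more often than any other list of over 6 genes except ribosome biogenesis: 25 of 31 rose (median 0.76). Ypel4, of the yippee-like family, went from 7.94, 6.99 and 7.39 to 10.69 and 11.15, a rise of 3.49 (SE 0.23, adjusted p = 2.48e-06). The groups lay far apart. Xpo7, a nuclear exportin, went from 7.59, 7.72 and 7.86 to 10.85 and 10.60, a rise of 3.0 (SE 0.17, adjusted p = 6.8e-07), and Ube2o, a ubiquitin enzyme that clears ribosomes and other proteins from reticulocytes, rose by 2.5. Tent5c, a poly(A) polymerase, rose by 2.29, Ube2h by 1.92, the ubiquitin ligase gene Mkrn1 by 1.61 and Trak2, a mitochondrial transport adaptor, by 1.56. Outside that list, Bcl2l1, which encodes the survival protein BCL-XL, rose by 2.42 (SE 0.14, adjusted p = 5.58e-07), from 7.57, 7.82 and 7.73 to 10.03 and 10.23. Others of the 15 largest rises were Hsd3b6, a steroid dehydrogenase gene (3.48), Fn3k, which removes sugars from proteins (3.01), the histone gene H2bc4 (2.63), the corepressor gene Runx1t1 (2.59), Tmcc2 (2.36) and Tcp11l2 (2.34).

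Transcription factors of the lineage moved in part. Of 24, 13 rose and 2 fell (median 0.47), and 8 rose without the Ter119- CD71+ array of embryo 11. E2f2, which acts in the last erythroid divisions, went from 7.87, 7.65 and 7.82 to 9.72 and 9.73, a rise of 1.95 (SE 0.14, adjusted p = 3.58e-06). Nfe2 rose by 1.59, Sox6 by 1.05, Bach1 by 0.64 and Tal1 by 0.59. Bcl11a, a repressor of embryonic globin genes, fell from 10.15, 10.22 and 10.08 to 9.44 and 9.25 (-0.80, SE 0.13, adjusted p = 0.00124). For Gata1 and Klf1 the differences were 0.42 (adjusted p = 0.22) and 0.36 (adjusted p = 0.116).

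**Figure D3:**
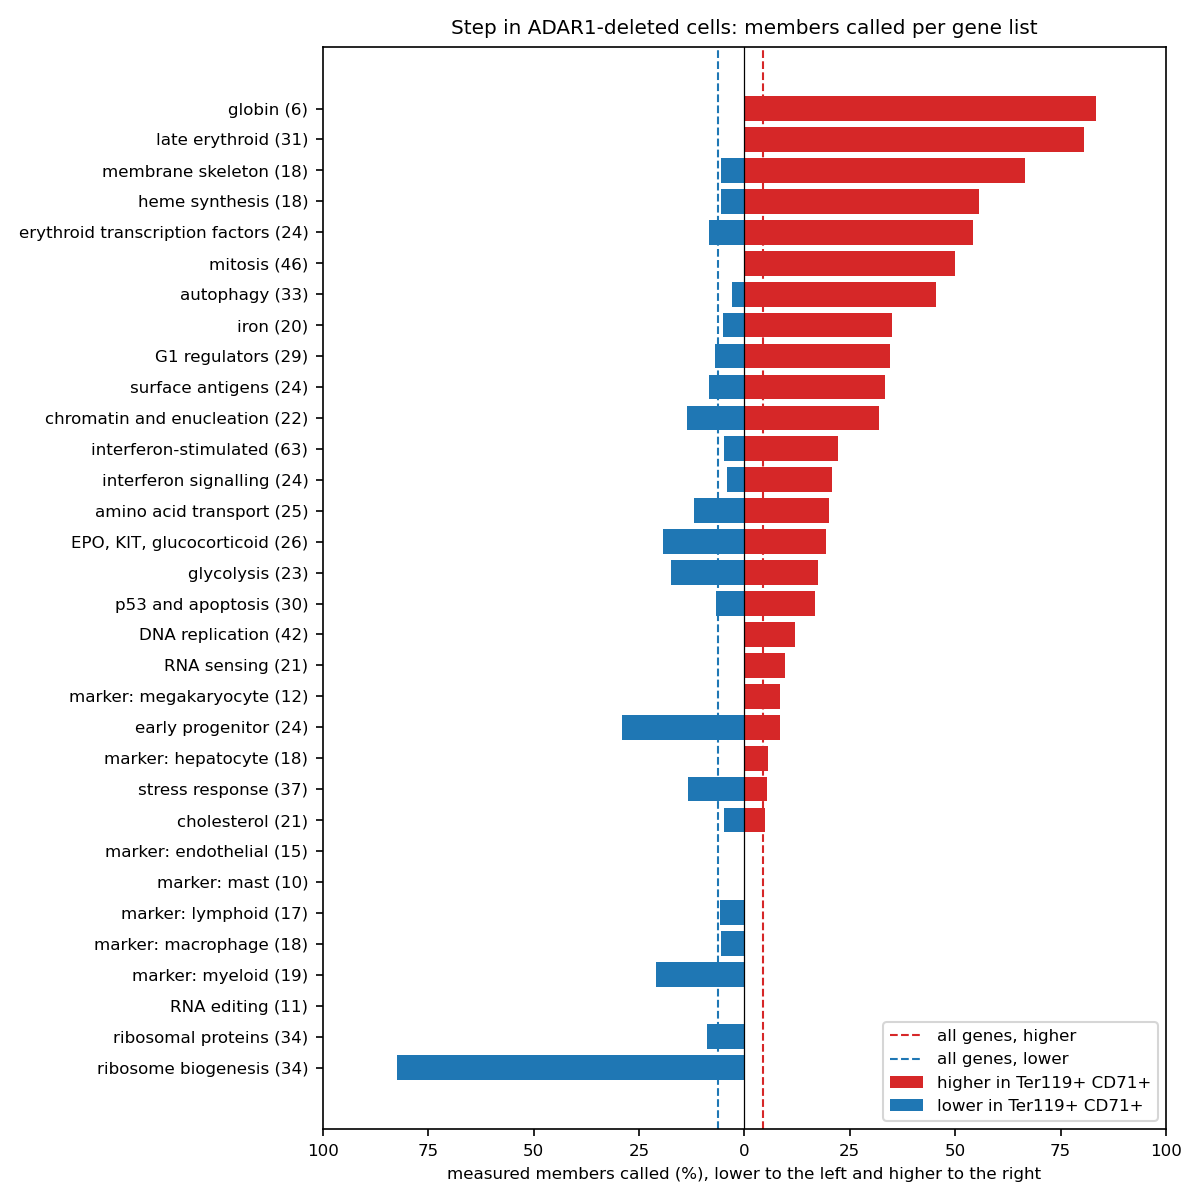
Percent of the measured members of 32 gene lists (y axis, number of measured members in parentheses) called higher (red, to the right) or lower (blue, to the left) in Ter119+ CD71+ against Ter119- CD71+ ADAR1-deleted cells. Dashed lines mark all genes (4.50% and 6.24%), and the longest bars are globin (5 of 6 higher), late erythroid (25 of 31 higher) and ribosome biogenesis (28 of 34 lower).

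Kit, Cdk6 and Myb, of the early progenitor list, were among the 15 largest decreases. Kit fell by 2.96 (SE 0.21, adjusted p = 2.48e-06). Myb, a transcription factor of progenitor proliferation, measured 9.03, 9.09 and 8.84, then 6.63 and 6.66. It fell by 2.34 (SE 0.12, adjusted p = 5.58e-07), and the 2 Ter119+ CD71+ arrays were nearly equal. Cdk6, a G1 kinase that restrains erythroid maturation, went from 9.47, 9.55 and 9.33 to 6.05 and 7.0 (-2.92, SE 0.22, adjusted p = 4.71e-06). Dctd, the deaminase that makes dUMP for thymidylate synthesis, fell from 9.87, 9.79 and 10.33 to 6.17 and 7.28 (-3.27, SE 0.37, adjusted p = 9.71e-05), the largest decrease among the named genes. The 2 Ter119+ CD71+ arrays differed by about 1 unit for these last genes and stayed below all 3 Ter119- CD71+ arrays. Myc fell by 1.20 (SE 0.14, adjusted p = 0.000174), from 10.67, 10.70 and 10.67 to 9.34 and 9.62. The early progenitor list as a whole had 7 lower and 2 higher of 24 (median -0.22). The 2 higher were Runx1t1 and Lyl1 (0.74). Further large decreases were of Fyb, an adaptor of adhesion signalling (-2.41), Tagln2, an actin-binding protein (-2.39), Sh2d4a (-2.36), Naf1, an assembly factor of H/ACA ribonucleoproteins (-2.23), Radx, which acts at replication forks (-2.23), and Ppic, a cyclophilin (-2.22).

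Ribosome production fell across nearly the whole list. Of 34 ribosome biogenesis genes 28 fell, all 34 had negative differences, and the median was -1.03, beside 0.05 for all genes. Over all 19938 genes, 11905 differences were positive. Utp20, of the small subunit processome, measured 9.01, 8.99 and 9.10, then 7.20 and 7.88 (-1.49, SE 0.17, adjusted p = 0.00012). Nat10, an RNA acetyltransferase of 18S rRNA, went from 9.33, 9.42 and 9.49 to 8.05 and 8.11 (-1.33, SE 0.16, adjusted p = 0.000131). Heatr1 fell by 1.42, Fbl (fibrillarin) by 1.26 and Polr1a, the catalytic subunit of RNA polymerase I, by 1.01. For each of these 5 genes the arrays did not overlap, as held for all called genes but Slamf8. The size depended on the array of embryo 10: the list's median was -1.23 within embryo 10 and -0.90 within embryo 11, and without the Ter119+ CD71+ array of embryo 10 the number called fell from 28 to 10. Of 34 ribosomal protein genes 3 fell (Rpl12, Rps28 and Rplp1; median -0.16), and none of these 3 calls held in every omission. By limma none of the list fell without the Ter119+ CD71+ array of embryo 10 or the Ter119- CD71+ array of embryo 11 (11 had an unadjusted p under 0.05 with all arrays), 1 fell without that of embryo 1 or 10, and 8 without the Ter119+ CD71+ array of embryo 11. The MYC E box CACGTG was in 7 of 28 ribosome biogenesis promoter windows (25%) and in 9.5% of those of measured genes.

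Part of the genes of mitosis and of G1 control rose. All 46 mitosis genes had positive differences, beside 11905 of all 19938 genes, and 23 rose (median 0.48). Cdc25b, a phosphatase that starts mitosis, went from 8.60, 8.21 and 8.26 to 10.31 and 10.43, a rise of 2.02 (SE 0.17, adjusted p = 8.29e-06). Its arrays did not overlap, as held for all called genes but Slamf8. Cdc25c rose by 1.04, Cenpf, a kinetochore gene, by 0.94, the mitotic kinase gene Aurka by 0.89 and Dlgap5, a spindle factor, by 0.81. Of 29 genes of G1 control 10 rose and 2 fell (median 0.35), and 5 fell without the Ter119+ CD71+ array of embryo 11. Cdkn2d (p19, an inhibitor of CDK4 and CDK6) went from 6.45, 6.57 and 6.43 to 7.98 and 8.56, a rise of 1.79 (SE 0.16, adjusted p = 1.22e-05). Cdkn2c (p18) rose by 1.72 and Btg2, an antiproliferative gene, by 1.44, and both genes that fell were kinases these inhibitors bind, Cdk6 and Cdk4 (-0.83). The Cdk4 call ended without the Ter119- CD71+ array of embryo 1 or 11 or the Ter119+ CD71+ array of embryo 10 (highest adjusted p = 0.332). Of 42 DNA replication genes 5 rose (median 0.16), Rrm2, Slbp, Cdc6, Lig1 and Tyms, by 0.41 to 0.57. Their number was 2 with the fixed replicate block, 1 on median-centred arrays, 2 without the Ter119- CD71+ array of embryo 1, and 0 without that of embryo 10 or without the Ter119+ CD71+ array of embryo 11. The E2F motifs TTTGGCGC and TTTCGCGC were in 7 and 8 of 36 replication gene windows, against 0.8% and 0.5% of measured genes.

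Autophagy genes, through which maturing cells remove mitochondria, rose in 15 of 33 and fell in 1 (median 0.40). Gabarapl2, an ATG8 family member, went from 8.07, 7.82 and 7.97 to 8.87 and 9.56, a rise of 1.26 (SE 0.18, adjusted p = 0.00072). The protease genes Atg4a and Atg4c, which process that family, moved in opposite directions, by 1.26 and -1.17. Ulk1, the kinase that starts autophagy, rose by 1.14 and Map1lc3b by 0.84. Of 22 chromatin and enucleation genes 7 rose and 3 fell (median 0.14), with Xpo7 and Plek2, an actin regulator (1.19), rising most and Kat2a, a histone acetyltransferase (-1.56), falling most.

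Signalling and metabolic lists moved both ways. Of 26 genes of erythropoietin, KIT and glucocorticoid signalling 5 rose and 5 fell (median -0.04). Pim1, a kinase gene induced through STAT5, went from 8.71, 8.84 and 8.43 to 10.20 and 9.83, a rise of 1.36 (SE 0.14, adjusted p = 7.2e-05). The count of higher genes in that list was 3 with the fixed replicate block, 2 on median-centred arrays, 1 without the Ter119- CD71+ array of embryo 11, 2 without that of embryo 10 or the Ter119+ CD71+ array of embryo 11, and 3 in the other 2 omissions. The count of lower genes was 3 without the Ter119- CD71+ array of embryo 1 or 10 or the Ter119+ CD71+ array of embryo 10. Among 23 glycolysis genes 4 rose and 4 fell (median -0.10). Slc2a1 and Slc2a4, glucose transporters, rose by 1.64 and 1.16 and Bpgm, which makes the oxygen affinity regulator 2,3-bisphosphoglycerate, by 1.53. Hk2, a hexokinase gene, fell by 1.48 (SE 0.26, adjusted p = 0.00258), from 7.96, 8.51 and 7.56 to 6.84 and 6.22. The lower count was 1 without the Ter119+ CD71+ array of embryo 10 and 2 without that of embryo 11. Of 25 amino acid transporters 5 rose and 3 fell, led by Slc16a10 (1.27), Slc38a5 (1.13) and the glycine transporter gene Slc6a9 (1.12). The lower count was 1 without the Ter119+ CD71+ array of embryo 10. Of 37 genes of the stress responses 2 rose, the heme-regulated kinase gene Eif2ak1 (0.90) and Ppp1r15a (1.13), the phosphatase regulator that restores translation, and 5 fell, among them the serine synthesis gene Psat1 (-1.36) and Pdia4 (-1.24). The number that fell was 2 without the Ter119- CD71+ array of embryo 1 or 10 and 3 without the Ter119+ CD71+ array of embryo 10. Of 30 p53 and apoptosis genes 5 rose and 2 fell (median 0.06), with Bcl2l1 and Trp53inp1, an autophagy and cell death regulator (1.57), rising most. None fell by limma without the Ter119- CD71+ array of embryo 1 or 11 or the Ter119+ CD71+ array of embryo 10, where 10 of the 30 had an unadjusted p under 0.05 with all arrays. Of 21 cholesterol synthesis genes Fdft1, squalene synthase, rose (0.64) and Tm7sf2, a sterol reductase gene, fell (-0.56). The Tm7sf2 call ended without the Ter119+ CD71+ array of embryo 10 (-0.44, adjusted p = 0.124) and with array weights, and 4 genes of the list fell without that of embryo 11.

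Interferon-stimulated genes rose in part during the step. Rsad2 measured 6.63, 6.88 and 6.05, then 9.70 and 9.79, a rise of 3.22 (SE 0.40, adjusted p = 0.000192). Ifit1 measured 5.84, 5.83 and 5.26, then 9.31 and 8.08, a rise of 3.05 (SE 0.33, adjusted p = 8.01e-05). Oasl2 measured 6.72, 7.59 and 7.08, then 9.92 and 9.43, a rise of 2.54 (SE 0.33, adjusted p = 0.000265). For all 3 genes both Ter119+ CD71+ arrays lay above the 3 others by more than 1.8 units. Of 63 measured interferon-stimulated genes 14 rose and 3 fell, with a median of 0.27 beside 0.05 for all genes. Sp100, a nuclear body protein gene, rose by 1.41 (SE 0.17, adjusted p = 0.000174), and Ube2l6 and Uba7, the conjugating and activating enzymes of ISG15, by 1.84 and 1.29. The 3 that fell were Ifitm2, a membrane restriction factor gene (-1.49), Lgals3bp (-1.26) and Nmi (-0.83, which lost its call in 4 of the 5 omissions). Ifit2 and Ifit3, close relatives of Ifit1, had differences of -0.94 and -0.30 and were not called.

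The count of 14 was 8 without the Ter119- CD71+ array of embryo 11 or the Ter119+ CD71+ array of embryo 10, 9 on median-centred arrays, 10 to 13 in the other omissions and 15 with the fixed replicate block. In the control step 5 of the 63 genes rose and 3 fell (median 0.10). Ube2l6 and Uba7 also rose in controls, by 2.17 and 1.74 (adjusted p = 3.99e-07 and 1.62e-06), and so did Oasl2 (adjusted p = 0.00196). Ifitm2 also fell in controls (-1.13, adjusted p = 0.000112). Sp100 was not called there (0.13, adjusted p = 0.678). For none of these genes was the difference between the steps called. The mean level of the list was 6.87, 7.07 and 6.87, then 7.31 and 7.25 in the ADAR1-deleted arrays, and 5.90 to 6.23, then 5.91 to 6.43 in the controls. Ifit1 had a control difference of 0.75 (adjusted p = 0.107) and Rsad2 of 1.17 (adjusted p = 0.0322), and the differences between the steps, 2.31 and 2.06, were not called (adjusted p = 0.172 and 0.355). Without the Ter119+ CD71+ array of embryo 11 that of Ifit1 was called (2.93, adjusted p = 0.024). Of the 24 genes of interferon signalling 5 rose and 1 fell: Ifnar2, Ifnar1, Jak2, Socs3 and Stat2 by 0.45 to 0.65, and Ifngr1, the receptor chain of interferon gamma, by -2.17 (SE 0.27, adjusted p = 0.00023). Of the 5 that rose, Ifnar2 alone kept its call in every omission, and the number was 3 with the fixed replicate block, 1 on median-centred arrays, 2 without the Ter119- CD71+ array of embryo 11, and 3 without that of embryo 1 or 10 or the Ter119+ CD71+ array of embryo 10. Of 21 RNA sensing genes Mavs and Ticam1, adaptors of RNA sensors, rose by 0.96 and 0.74, and neither was called without the Ter119+ CD71+ array of embryo 10. None of 11 RNA editing genes was called by limma, with 2 at an unadjusted p under 0.05. With the fixed replicate block 1 fell.

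**Figure D4:**
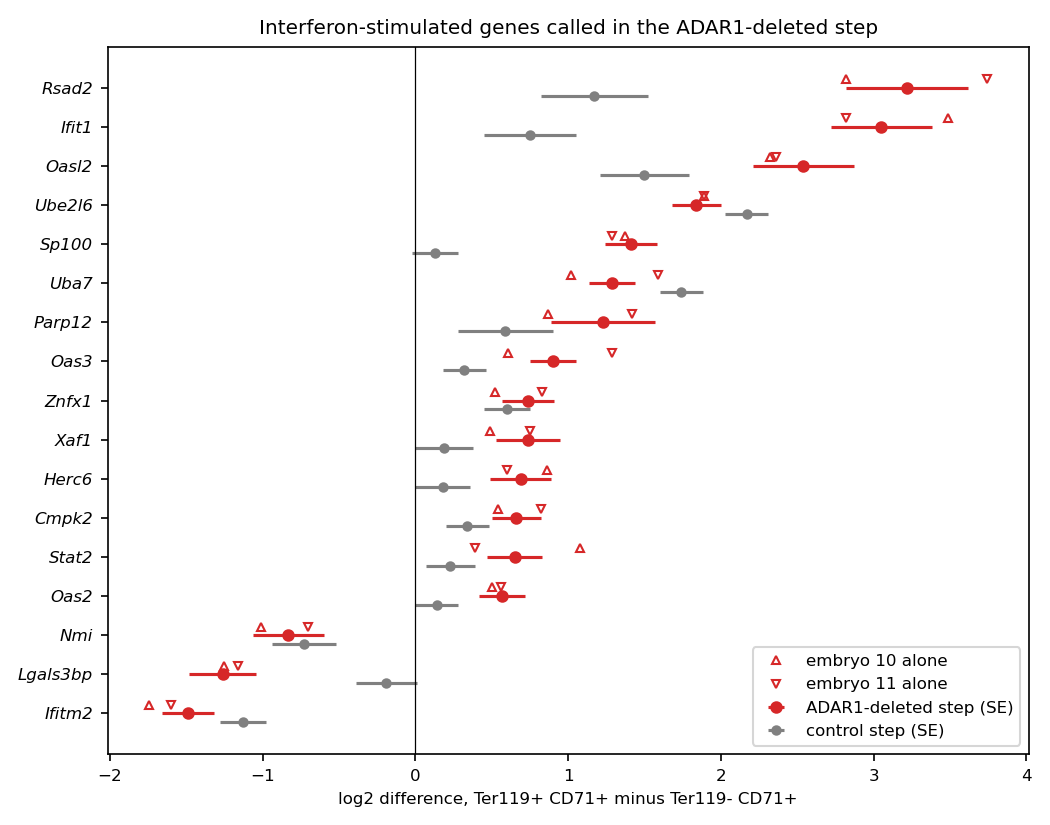
Log2 difference between Ter119+ CD71+ and Ter119- CD71+ cells (x axis) for the 17 interferon-stimulated genes called in the ADAR1-deleted step (y axis). Filled red points with SE bars are the fitted step, open triangles the differences within embryos 10 and 11, and grey points with SE bars the control step, with 14 genes to the right of 0 and 3 to the left.

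Genes of other blood cells moved with the step as well. Lyz2, S100a9, Stfa3 and Cstdc6, all expressed in neutrophils or macrophages, were among the 15 largest decreases. S100a9 measured 7.80, 10.36 and 7.40, then 6.01 and 5.65, so that the Ter119- CD71+ array of embryo 10 lay over 2 units above its 2 partners. Its difference of -2.69 (SE 0.60, adjusted p = 0.0104) became -1.77 without that array, and Stfa3 and Cstdc6 went from -2.53 and -2.24 to -1.59 and -1.38. All 4 calls ended without the Ter119+ CD71+ array of embryo 10, where the differences were -2.18 for Lyz2, -2.87 for S100a9, -2.36 for Stfa3 and -2.23 for Cstdc6 (adjusted p from 0.0572 to 0.185), and that of Cstdc6 also without the Ter119- CD71+ array of embryo 1 or the Ter119+ CD71+ array of embryo 11. All 19 myeloid markers had negative differences (median -0.47), where 11905 of all 19938 genes had positive ones, and 4 fell. The mean myeloid level was 5.73, 6.94 and 5.72, then 5.39 and 5.20, and in control cells 5.06 to 5.35, then 5.18 to 5.32. The number that fell was 9 with the fixed replicate block, 0 without the Ter119+ CD71+ array of embryo 10, with array weights or with the compared groups alone in the fit (limma, with 10 of 19 at an unadjusted p under 0.05 in the fit of all arrays), 2 without that of embryo 11 and 6 without the Ter119- CD71+ array of embryo 1. Their part in the other results was not tested.

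Of 18 macrophage markers Lyz2 fell. Of the defining genes, Adgre1 was at 5.13 or below, and Cd68 measured 7.25, 7.17 and 7.34, then 6.14 and 7.04. The defining gene C1qa is not reported here. The Cd68 difference of -0.66 was not called (adjusted p = 0.120). Of 17 lymphoid markers Ptprc, the common leukocyte antigen, fell from 6.45, 7.65 and 6.52 to 5.5 and 5.32 (-1.46, SE 0.28, adjusted p = 0.00394). This call ended with array weights and with the compared groups alone in the fit, and the other 16 lymphoid markers were not called. Of 18 hepatocyte markers Afp rose by 1.18 (adjusted p = 0.0212), a call that ended with the fixed replicate block and without the Ter119- CD71+ array of embryo 1 or the Ter119+ CD71+ array of embryo 10 (0.74). The count was 3 without the Ter119- CD71+ array of embryo 10 or the Ter119+ CD71+ array of embryo 11. The mean hepatocyte level was 5.51, 5.81 and 5.64, then 6.14 and 5.76, and in control cells 5.80 to 5.92, then 6.26 to 6.43. In the control step 9 of the 18 hepatocyte markers rose (median 0.44). In the ADAR1-deleted step 17 of the 18 had positive differences (median 0.21), where 11905 of all 19938 genes did. There the defining marker Alb differed by 1.05 and was not called (adjusted p = 0.0732). Itga2b was the 1 of 12 megakaryocyte markers that rose (0.63), and none of 10 mast cell and 15 endothelial markers was called by limma, with 4 and 2 at an unadjusted p under 0.05.

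The control step gave the comparison. There 1449 genes rose (7.27%) and 2340 fell (11.7%), from 3 embryos in each population. Of the 2143 genes called in ADAR1-deleted cells 1813 were also called in controls, which is 84.6% of the first and 47.8% of the second, and 1812 of these moved in the same direction. The 1 exception was Plin2, a lipid droplet protein gene, named after its values were seen: it measured 10.23, 10.35 and 10.13, then 9.35 and 9.95, a difference of -0.59 (SE 0.16, adjusted p = 0.028), against 0.47 in controls (adjusted p = 0.0313), and its difference between steps of -1.06 was not called (adjusted p = 0.181) except without the Ter119+ CD71+ array of embryo 11. Across all genes the 2 steps correlated at r = 0.82. These steps share no arrays, and genes are not independent replicates. Of the genes called in both, 1255 moved further in controls. The 330 genes called in ADAR1-deleted cells and not in controls had the same sign there in 288 cases.

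The test of the difference between the steps called 2 genes of 19938 (0.0100%), with 1087 at an unadjusted p under 0.05 (5.45%). The median SE was 0.20 for that difference and 0.15 for the ADAR1-deleted step. Adgrg7, an orphan adhesion G protein-coupled receptor gene, measured 8.54, 8.28 and 8.49, then 5.91 and 5.46 in ADAR1-deleted cells, a difference of -2.75 (SE 0.15, adjusted p = 5.58e-07). In control cells it measured 5.70, 5.91 and 5.69 (embryos 2, 13 and 15), then 5.09, 4.92 and 5.18, a difference of -0.70. The 3 ADAR1-deleted Ter119- CD71+ arrays were thus above all others, and the difference between the steps was -2.05 (SE 0.21, adjusted p = 0.00278). The 170 bases before its start site (chr16:56795859-56796028, minus strand) are shown with the GATA motif AGATAA, at -136, and the interferon response core, there TTCCTTTTC at -22, in capitals.
Adgrg7: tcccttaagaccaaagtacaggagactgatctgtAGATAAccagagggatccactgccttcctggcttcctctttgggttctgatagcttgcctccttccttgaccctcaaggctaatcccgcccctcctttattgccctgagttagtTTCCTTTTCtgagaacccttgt

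Mpped2, a metallophosphoesterase domain gene, measured 6.63, 6.42 and 6.56, then 5.03 and 5.02, against 5.12, 5.11 and 5.16, then 4.67, 4.76 and 5.02 in controls. Its difference between the steps was -1.20 (SE 0.16, adjusted p = 0.0393). As with Adgrg7, the Ter119- CD71+ arrays of ADAR1-deleted embryos were the high ones. Adgrg7 was called in 21 of 21 settings other than a minimum difference of 1 log2 unit (highest adjusted p 0.0377), and Mpped2 in 8 of 21 (highest adjusted p 0.163). The next gene was Hba-x, which rose by 2.25 in ADAR1-deleted cells and 0.74 in controls, a difference of 1.51 (adjusted p = 0.0604). It was called when control embryo 13 was left out of the Ter119+ CD71+ group (1.67, adjusted p = 0.0155) and when the dimmest 33.3% of genes were left out (adjusted p = 0.0487). Hbb-y rose by 3.89 and 1.78, a difference of 2.11 (adjusted p = 0.345). With the fixed replicate block 4 genes were called, Adgrg7 (-2.00), Hbb-y (1.97), the kinase gene Prkcq (-2.14) and Tyrobp, an adaptor of myeloid receptors (-2.36). Without the Ter119+ CD71+ array of embryo 11 there were 12, and 1 to 3 in the other omissions.

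Probe sets outside the gene table moved too. Of 12146 with no listed gene 330 were called (265 higher and 65 lower, 2.72%), and of 1621 with several symbols 68 (4.19%), in a fit of all probe sets that called 7.22% of those with 1 symbol. Several probe sets measured the same gene in 131 cases with a call, and in 46 of them all were called and in 9 their signs differed.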

How the data were processed

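RNA of sorted fetal liver cells was extracted with a Qiagen kit, per the labels' protocols, and measured on 13 biotin-labelled arrays. The deposited values are log2 signals made by the authors with RMA, per the submitters' processing notes, which also name mm9 with no role given. The sources used here give no RMA version. Each sample came from 1 embryo. The number of arrays limits the precision. Of the probe sets, 21789 had 1 symbol, 1621 several and 12146 none. The one with the highest mean over all arrays stood for each of 19938 genes.

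limma 3.58.1 (R 4.3.3) fitted 5 group means to the 13 arrays, with 8 residual and 5.56 prior degrees of freedom (prior SD 0.158). Contrasts were the step in ADAR1-deleted cells, the step in controls and their difference. P values were two-sided and adjusted over all genes. The fit was tested on simulated data with independent noise of equal spread in every group. Those data held no outlying array, shared embryo or mixed sex, so they do not test the fit under these. Titles share a number between populations. It was read as the embryo, an inference the labels do not state outright. After removal of group means, same-numbered arrays of these 2 populations correlated at 0.302 and 0.330 in embryos 10 and 11, and at 0.054, -0.225 and 0.350 in controls 2, 13 and 15. Differently numbered arrays reached 0.426 (ADAR1-deleted Ter119+ CD71+ embryo 10 with control Ter119+ CD71med embryo 15). Deviations in a group of 2 arrays mirror each other: Ter119- CD71+ embryo 10 correlated at -0.302 with Ter119+ CD71+ embryo 11. These values therefore do not test whether arrays share an embryo.

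Named genes were Tfrc, Kit, Adar and the 15 largest called changes in each direction without overlap between arrays (38 predicted genes passed over). Added to them were the 4 members with the lowest adjusted p, called or not, of each list except the sex-linked one. Lists with few calls also gave their other called members, and the leading step differences were included. This rule named 145 genes, of which 115 were called. Further list members (such as Add3, Myc, Bcl11a, Sp100, Cdk4 and Ifit2), Slamf8, Plin2, Prkcq and Tyrobp were named after their values were seen. The arrays, the 33 lists (799 of 878 entries measured) and the rule were chosen with earlier results of these data known. Alternatives were other scalings, filters, probe set summaries and variance models, embryo as a block, a minimum difference, and each array left out in turn. RefSeq promoter windows came from GRCm38.p6. Tables and figures were made in Python 3.11.15 (matplotlib 3.10.9, numpy 2.4.6, pandas 2.3.3).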

Additional observations from a re-analysis of the deposited data

Results flagged for a closer look

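2 genes were singled out because their step differed between ADAR1-deleted and control cells by a test of the difference itself (limma, adjusted over 19938 genes). Adgrg7 fell further in the ADAR1-deleted embryos, with a difference between the steps of -2.05 (adjusted p = 0.00278). Its group means went from 8.44 to 5.69 in ADAR1-deleted cells, and from 5.77 to 5.06 in controls. It was lower in Ter119+ CD71+ cells in both embryos with a pair of arrays, which is no independent support for its call. Mpped2 had a difference between the steps of -1.20 (adjusted p = 0.0393), and its call held in 8 of 21 settings.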

How the results depend on the processing

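No named gene's difference changed sign in the settings run. The balance of calls, 41.9% higher, turned to 61.2% without the Ter119+ CD71+ array of embryo 10 and to 74.4% with a minimum difference of 1. With array weights 7 interferon-stimulated, 13 mitosis, 8 erythroid transcription factor, 10 autophagy and 5 heme genes were higher, and 21 ribosome biogenesis genes lower. Of 115 named genes called, 88 kept the call in every omission of 1 array. The counts of 898 higher and 1245 lower genes became 442 and 565 with array weights and 32 and 11 when a difference over 1 log2 unit was required. They ran from 641 to 1465 and from 449 to 1892 over the omissions of 1 array, lowest for lower genes without the Ter119+ CD71+ array of embryo 10. On median-centred arrays 36.6% of called genes were higher. The control count of 3789 became 6349 with array weights and 139 with a minimum difference of 1, and 2884 to 3626 without 1 array. The step difference count of 2 was 1 after quantile normalization again, on median-centred arrays, with the groups compared alone or with array weights, 4 with the fixed replicate block, 0 with a minimum difference of 1 (limma's treat), and 1 to 12 without 1 array. The fixed replicate block kept 1728 of the 2143 called genes (80.6%) and ended the step calls of 10 named genes (Afp, Ifnar1, Jak2, Lig1, Rplp1, Rps28, Slbp, Smad5, Socs3 and Tyms) and the step difference call of Mpped2. The cause of these shifts was not tested. Where 1 array was left out of the ADAR1-deleted Ter119+ CD71+ group, the lone array was assumed to vary like the other groups.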
